A study of Mus musculus with 4 samples.

Results

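The genes described here encode the proteins by which a cone turns light into an electrical signal: the opsins Opn1sw and Opn1mw, the transducin subunits Gnat2, Gnb3 and Gngt2, the phosphodiesterase subunits Pde6c and Pde6h, the channel subunits Cnga3 and Cngb3, and the arrestin Arr3. They were chosen by name, as the features of the array whose annotation gives 1 of these symbols alone, and each of the 10 was represented by 1 feature among the 22431 features and 18920 singly annotated genes measured. RNA came from retinal cells of BAC-Crx-EGFP mice on a 129Sv/Ev background at day E17.5 of embryonic development, sorted into 2 EGFP-positive and 2 EGFP-negative samples with 1 array each. All 4 samples carry the transgene, a bacterial artificial chromosome that places the enhanced green fluorescent protein under the regulatory sequences of Crx, a homeodomain transcription factor of photoreceptor precursors, so the fractions differ in reporter activity and not in genotype. The comparison addresses the expression profile of these precursors against that of the other retinal cells. Whether a replicate stands for its own animals, litter or sort is not stated in the labels, so the p-values cover the spread among these 4 samples, part or all of which may be technical.

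In a cone, light isomerises the chromophore of an opsin, the opsin activates transducin, and the transducin α subunit relieves the inhibition of a phosphodiesterase that breaks down cyclic GMP. The fall in cyclic GMP closes cation channels in the outer segment, and arrestin ends the response by capping the phosphorylated opsin. Rods use a parallel set of paralogous proteins. In the mouse retina cones leave the cell cycle before birth, most rods later, and outer segments form only after birth.

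By E17.5 the EGFP-positive cells carried more RNA for all 3 transducin subunits, the catalytic phosphodiesterase subunit and the modulatory channel subunit, while Opn1mw, Arr3 and Pde6h read at similar intensities in both fractions. At an adjusted p under 0.05 in limma, 5 of the 10 genes were higher (Cngb3, Pde6c, Gnb3, Gnat2 and Gngt2) and 0 were lower, with 7 of the 10 at an unadjusted p under 0.05. Among all features 0.820% were called higher, 0.143% lower, and 19.2% had an unadjusted p under 0.05 in either direction. The median log2 difference of the 10 genes, positive minus negative, was 2.23, and that of all features was -0.0092. Both positive arrays lay above both negative arrays for 9 of the 10 genes, against 22.3% of all features, the exception being Opn1mw. In bulk RNA, fewer cells of a type and less RNA per cell cannot be told apart, here and in every comparison that follows.

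**Figure D1:**
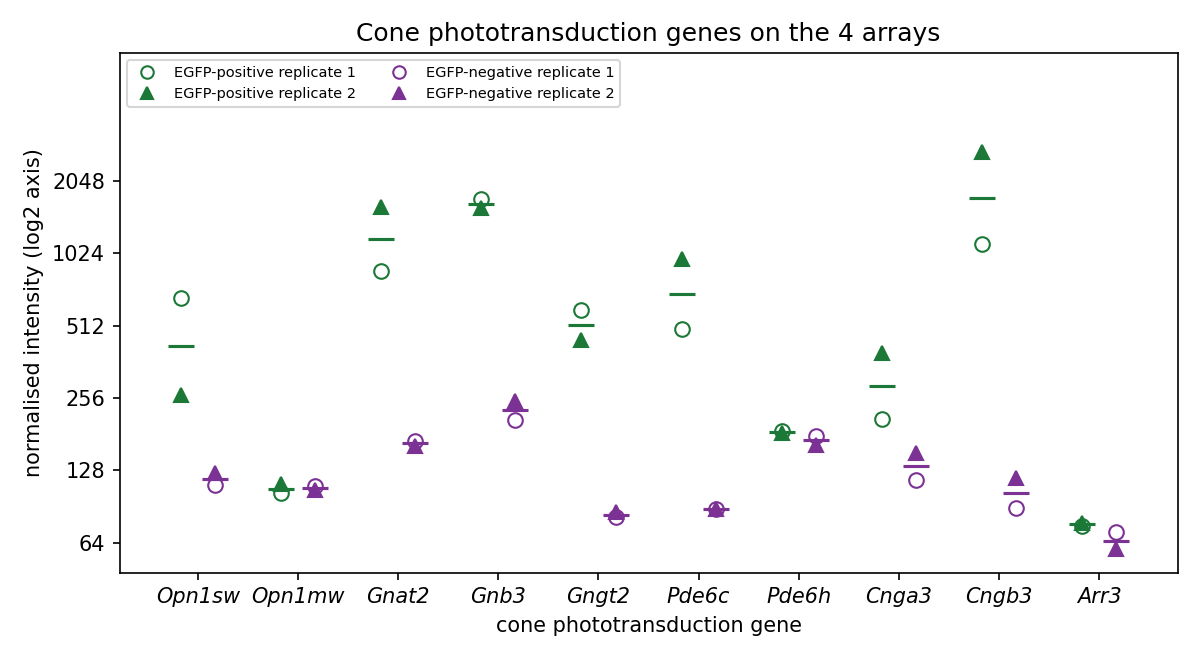
Normalised intensity (log2 axis) of the 10 cone phototransduction genes on each array, with EGFP-positive arrays in green to the left of EGFP-negative arrays in purple; open circles are replicate 1, filled triangles replicate 2, and short lines are the means of log2 intensity (n = 2 per fraction). The positive arrays stand well above the negative ones for Gnat2, Gnb3, Gngt2, Pde6c and Cngb3, their replicates differ widely for Opn1sw and Cngb3, and the fractions lie close together for Opn1mw, Pde6h and Arr3.

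Promoter sequence was read for 6 of the 10 genes from a RefSeq table of the build GRCm38.p6, as windows from 250 bases before to 50 bases after an annotated transcript start. Cngb3, Gnb3, Gngt2 and Pde6c had no entry there. Each window was searched on both strands for TAATCC, the core site of Crx and its relative Otx2, for the variant TAATCT, and for AGGTCA, the half-site of nuclear receptors such as those of thyroid hormone and the ROR family, and no matches overlapped. Of all 32851 windows of this length, 7.06% held TAATCC, 8.19% TAATCT and 16.3% AGGTCA. Matches fell in 3 of the 6 genes, and the windows of these 3 are shown for that reason. The share of all windows that held any of the 3 motifs was not counted. At E17.5 Gnat2 was called higher, Opn1sw separated the fractions but was uneven between replicates, and Arr3 hardly differed. The windows are chr3:108092816-108093115 on the plus strand for Gnat2, chr6:29380464-29380763 on the minus strand for Opn1sw and chrX:100605247-100605546 on the plus strand for Arr3. They are written 5′ to 3′ along the gene, with the matches in capitals.
Gnat2: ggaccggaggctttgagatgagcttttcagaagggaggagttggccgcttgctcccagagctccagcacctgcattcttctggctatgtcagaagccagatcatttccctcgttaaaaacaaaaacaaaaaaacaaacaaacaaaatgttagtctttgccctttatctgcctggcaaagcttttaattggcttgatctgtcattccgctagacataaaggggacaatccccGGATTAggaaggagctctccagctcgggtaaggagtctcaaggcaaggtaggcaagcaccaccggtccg
Opn1sw: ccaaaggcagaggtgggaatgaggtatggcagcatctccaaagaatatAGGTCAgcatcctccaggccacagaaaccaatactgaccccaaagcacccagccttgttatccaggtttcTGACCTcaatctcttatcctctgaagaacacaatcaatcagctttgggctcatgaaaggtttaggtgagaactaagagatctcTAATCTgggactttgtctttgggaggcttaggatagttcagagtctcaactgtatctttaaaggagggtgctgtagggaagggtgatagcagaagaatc
Arr3: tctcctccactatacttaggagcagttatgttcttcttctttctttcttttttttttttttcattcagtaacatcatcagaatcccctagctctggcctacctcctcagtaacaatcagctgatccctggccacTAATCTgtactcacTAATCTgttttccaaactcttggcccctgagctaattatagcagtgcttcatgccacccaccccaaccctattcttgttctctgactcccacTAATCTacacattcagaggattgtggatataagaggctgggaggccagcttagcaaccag
Positions are counted from the transcript start, with -1 the base before it. The Gnat2 window held 1 TAATCC on the opposite strand, seen as GGATTA, from -19 to -14. The Opn1sw window held 1 TAATCT from -49 to -44 and 2 copies of AGGTCA, 1 from -202 to -197 and 1 on the opposite strand, seen as TGACCT, from -132 to -127. The Arr3 window held 3 copies of TAATCT, from -116 to -111, from -102 to -97 and from -10 to -5. The windows of Opn1mw, Pde6h and Cnga3 held none of the 3 motifs. A match is a run of letters and not a measured binding site, and of the 5 genes called higher Gnat2 alone had a window to search.

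Opsins set the wavelength a cone responds to. The gene of the short-wavelength opsin, Opn1sw (feature 10543591), read 671.0 and 262.5 in positive replicates 1 and 2, against 111.5 and 124.5 in negative replicates 1 and 2. Both positive arrays were thus above the negative ones, but the first was 2.56-fold above the second. Opn1sw was 3.56-fold higher in the positive fraction with a 95% interval from 1.67-fold to 7.59-fold, and it missed the threshold (log2 difference 1.83 with an SE of 0.43, n = 2 per fraction; limma adjusted p = 0.116). Without positive replicate 1 the log2 difference was 1.16 (limma adjusted p = 0.0168), and without positive replicate 2 it was 2.51 (limma adjusted p = 0.00445). These fits leave 1 positive array, which is then assumed to vary like the negative ones, and so do not count the spread between the positive arrays. The genes were assembled as the cone cascade before the onset of opsin expression. Opn1sw read higher on both positive arrays than on the negative ones without passing the threshold, and whether its onset had come by E17.5 was not tested.

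The medium-wavelength opsin gene Opn1mw (feature 10600317) read 102.6 and 112.4 in the positive fraction, against 110.5 and 105.8 in the negative fraction. The fractions overlapped, and all 4 readings lay near the lower quartile of the array, at the 25.1 percentile of mean log2 intensity. The difference was -0.0099 ± 0.11 (limma adjusted p = 0.983), with a 95% interval from 0.824-fold to 1.20-fold, and its sign turned with centring of the arrays on their medians and without positive replicate 1 or negative replicate 1.

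The 3 subunits of cone transducin were higher in the positive fraction together, by 6.17-fold to 7.27-fold. Gnat2 (feature 10495259), the α subunit that carries the signal to the phosphodiesterase, read 862.2 and 1598.9 in the positive fraction, against 170.0 and 162.0 in the negative fraction. Gnb3 (feature 10547858), the β subunit, read 1731.2 and 1576.2 in the positive fraction, against 207.4 and 248.8 in the negative fraction. Gngt2 (feature 10380571), the γ subunit, read 597.6 and 445.9 in the positive fraction, against 81.6 and 85.7 in the negative fraction. No positive reading came near a negative one for any of the 3, and the gap was widest relative to the replicate spread for Gnb3. The log2 differences were 2.82 ± 0.29 for Gnat2 (limma adjusted p = 0.0293), 2.86 ± 0.13 for Gnb3 (0.00576) and 2.63 ± 0.16 for Gngt2 (0.00930). Ranked by difference among the 18920 genes, Gnb3, Gnat2 and Gngt2 stood at places 17, 19 and 23. The subunits nevertheless behaved unlike each other between the positive replicates: Gnat2 was 1.85-fold higher in replicate 2, whereas Gnb3 and Gngt2 were 1.10-fold and 1.34-fold higher in replicate 1.

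Of the phosphodiesterase subunits the catalytic one was higher in the positive fraction. Pde6c (feature 10462887), the catalytic subunit that hydrolyses cyclic GMP, read 496.3 and 967.6 in the positive fraction, against 88.4 and 88.5 in the negative fraction. It was 7.84-fold higher (log2 difference 2.97 ± 0.31, limma adjusted p = 0.0306), the 15th largest difference among the genes. Pde6h (feature 10542407), the small inhibitory subunit that holds the catalytic subunit in check in the dark, read 186.5 and 182.8 in the positive fraction, against 178.3 and 163.1 in the negative fraction. Its positive readings were above the negative ones by a margin that missed the threshold (log2 difference 0.11 ± 0.10, limma adjusted p = 0.661). The interval of that difference, 0.901-fold to 1.30-fold, ends far below the 4.53-fold at which the interval of Pde6c begins; the difference between the subunits was not itself tested.

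Of the channel subunits the modulatory one was higher in the positive fraction. Cngb3 (feature 10503464), the modulatory subunit of the cyclic nucleotide-gated channel, read 1123.2 and 2700.9 in the positive fraction, against 89.0 and 118.6 in the negative fraction. At 16.95-fold (95% interval 8.09-fold to 35.5-fold) it had the largest difference of the 10 genes and the third largest of all genes (log2 difference 4.08 ± 0.42, limma adjusted p = 0.0293). Even the lower of its positive readings was 10.9-fold above the negative mean, and the higher was 26.3-fold above it. Cnga3 (feature 10345571), the subunit that forms the conducting channel, read 208.5 and 394.8 in the positive fraction, against 117.1 and 151.1 in the negative fraction. It was 2.16-fold higher without passing the threshold (log2 difference 1.11 ± 0.32, limma adjusted p = 0.159). It passed without positive replicate 1 (1.57, limma adjusted p = 0.0145) and not without positive replicate 2 (0.65, limma adjusted p = 0.245).

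Arr3 (feature 10600994), the cone arrestin, lay among the dim features, at the 12.8 percentile of mean log2 intensity. It read 75.3 and 77.4 in the positive fraction, against 70.8 and 60.0 in the negative fraction. The small step between fractions was of the order of the difference between the negative replicates (log2 difference 0.23 ± 0.12, 95% interval 0.946-fold to 1.45-fold, limma adjusted p = 0.406). No detection call accompanies the values, so whether Arr3 or Opn1mw was above background could not be judged.

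The 5 calls were lost when either negative array was left out, while the differences stayed. Without negative replicate 1 the limma adjusted p of the called genes ran from 0.107 for Gnb3 to 0.260 for Pde6c, and without negative replicate 2 from 0.115 for Gnb3 to 0.230 for Pde6c. In those fits no feature and no cone minus rod gap (described further on) was called, with 2346 and 3134 features at an unadjusted p under 0.05. The log2 differences of the 5 genes without a negative array stayed between 2.59 and 4.29. These fits take the spread from the positive arrays alone, which differed more than the negative ones for the called genes other than Gnb3.

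Rods use a second gene for each step of the cascade. Of the 9 rod counterparts analysed, 0 were called by limma, 2 had an unadjusted p under 0.05 (Sag and Gngt1), and the median log2 difference was 0.29. Sag was 1.83-fold and Gngt1 1.41-fold higher in the positive fraction, both without overlap of the fractions (limma adjusted p of 0.112 and 0.0993). For each cone gene and its counterpart the log2 ratio on every array was entered as an added row in the fit over all features, which tests whether the cone gene differed more between fractions than the rod gene; p-values were adjusted over the 22439 rows. In 4 of 8 pairs the cone gene differed more at an adjusted p under 0.05, in a fit that called 0.873% of its rows higher. For the transducin α subunits the log2 difference was 2.82 for Gnat2 and 0.37 for Gnat1, a gap of 2.45 ± 0.15 (limma adjusted p = 0.00833). For the β subunits the gap of Gnb3 over Gnb1, which is also used widely outside photoreceptors, was 2.85 ± 0.12 (0.00528), and for the γ subunits the gap of Gngt2 over Gngt1 was 2.13 ± 0.17 (0.0138). For the channel, Cngb3 exceeded Cngb1 by 4.10 ± 0.43 (limma adjusted p = 0.0298), a call that a robust variance trend took to 0.0739. The fractions thus differed more for the 3 cone transducin genes and Cngb3 than for their rod counterparts on the same arrays. By mean log2 intensity Gngt1, Cngb1 and Gnat1 lay at the 15.4, 27.8 and 34.5 percentile, and Gnb1 at the 99.6 percentile. Whether the dim counterparts were above background could not be judged, so their gaps may mainly restate the difference of the cone gene. Gnb1, though bright, differed by 0.013 between the fractions, so the gap of 2.85 nearly restates the difference of 2.86 for Gnb3.

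The remaining pairs missed the threshold. Pde6c exceeded Pde6b, a rod catalytic subunit, by 2.68 ± 0.53 (limma adjusted p = 0.0883). Pde6b read 139.9 and 84.3 in the positive fraction, against 91.5 and 86.7 in the negative fraction. Pde6a, a further rod counterpart, read 98.7 and 101 in the positive fraction, against 104.9 and 100.1 in the negative fraction. The gap of Pde6c over Pde6a was not tested. Between the positive arrays Pde6c was higher in replicate 2 and Pde6b in replicate 1. The gap passed without positive replicate 1 (3.53, limma adjusted p = 0.00126) and without positive replicate 2 (1.84, limma adjusted p = 0.00748), fits that again leave out the spread between the positive arrays. Cnga3 exceeded Cnga1 by 1.13 ± 0.34 (limma adjusted p = 0.168). Pde6h fell short of its counterpart Pde6g by a difference of -0.19 ± 0.15 (limma adjusted p = 0.595), and Arr3 of the rod arrestin Sag by -0.65 ± 0.24 (limma adjusted p = 0.243). Sag read 278.7 and 192.4 in the positive fraction, against 117.5 and 135.7 in the negative fraction, with no overlap.

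**Figure D2:**
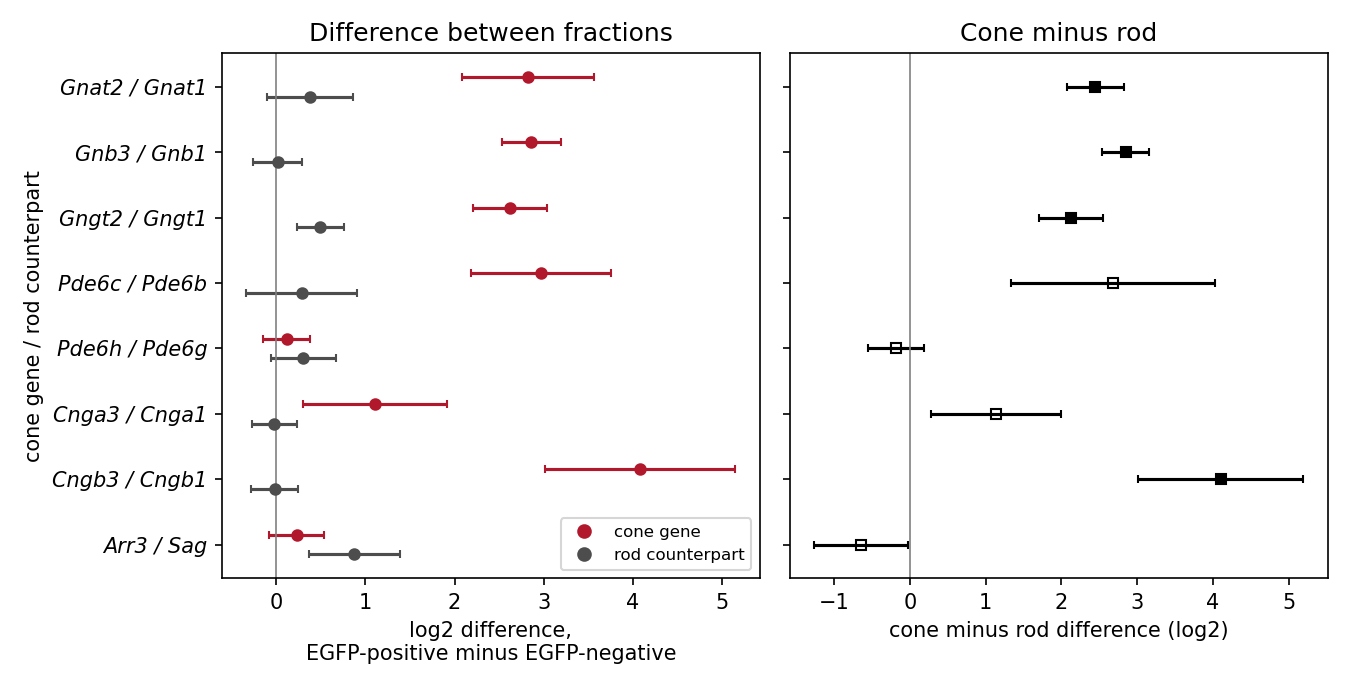
Left, log2 difference between fractions (EGFP-positive minus EGFP-negative, limma, bars are unadjusted 95% intervals, n = 2 arrays per fraction) for 8 cone genes in red and their rod counterparts in grey; right, the cone minus rod gap with its 95% interval, filled squares passing an adjusted p under 0.05. The cone transducin and Cngb3 gaps lie between 2.13 and 4.10, and the Pde6h and Arr3 gaps lie below 0.

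The positive replicates divided the cone genes into those higher in replicate 2, those higher in replicate 1 and those that hardly moved. Replicate 2 exceeded replicate 1 by 2.41-fold for Cngb3, 1.95-fold for Pde6c, 1.89-fold for Cnga3 and 1.85-fold for Gnat2, log2 differences of 1.27, 0.96, 0.92 and 0.89. Opn1sw went the other way by -1.35, and Gngt2 by -0.42. Over all features the 5th and 95th percentiles of this replicate difference were -0.44 and 0.42, and 1.22% of features differed by at least 1 on the log2 scale in either direction. Cngb3, Pde6c, Cnga3, Gnat2 and Opn1sw therefore lay outside the range that holds most features, and Gnb3, Pde6h, Arr3 and Opn1mw lay between -0.14 and 0.13. In the negative fraction the same 10 genes differed between replicates by -0.24 to 0.41.

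Other genes of the lineage varied between the same arrays. Thrb, the thyroid hormone receptor that directs the opsin pattern of cones, was higher in positive replicate 2 by 1.79 on the log2 scale, and its dimerisation partner Rxrg by 0.65. Slc24a2, which encodes a calcium exchanger of cones and was singled out after its values were seen, read 109.3 and 257.2 in the positive fraction, against 93.0 and 72.2 in the negative fraction, so that its reading was also higher in positive replicate 2. Nrl, which specifies rods, differed by -0.69, being higher in positive replicate 1, like Opn1sw. The rod genes divided: Pde6b also differed by -0.73, whereas Gnat1 differed by 0.52, being higher in positive replicate 2. Crx, whose regulatory sequences drive the reporter, was higher in replicate 2 by 0.39. Markers of other cell types shifted between these arrays as well, and their part in the replicate differences was not tested. Summed over 10 ganglion cell genes the intensity was 5271.1 and 8967.6 in the positive fraction, against 4006.0 and 9338.4 in the negative fraction. Over 9 progenitor genes it was 17641.7 and 16440.9 in the positive fraction, against 23900.3 and 26294.9 in the negative fraction. Of 5 horizontal cell genes, summing to 2012.6 and 3700.7 in the positive fraction, against 1733.2 and 1648.4 in the negative fraction, Onecut1 and Onecut2 carried most of the step between the positive arrays, and Onecut1 also stands in the list of transcription factors. Of 4 endothelial genes, summing to 3509.0 and 1433.8 in the positive fraction, against 5231.3 and 3214.3 in the negative fraction, Kdr alone carried the change, with 3171.2 and 1107.0 against 4888.5 and 2883.9, while Cdh5, Pecam1 and Tek were nearly level. Ganglion cell genes other than Thy1 were higher in replicate 2 of both fractions. None of these genes was listed at 0, and limma called 1 progenitor gene, Sox2, lower, against 0.143% of all features. It called none of the ganglion, horizontal and endothelial genes, of which 0, 2 and 0 had an unadjusted p under 0.05, against 19.2% of all features.

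**Figure D3:**
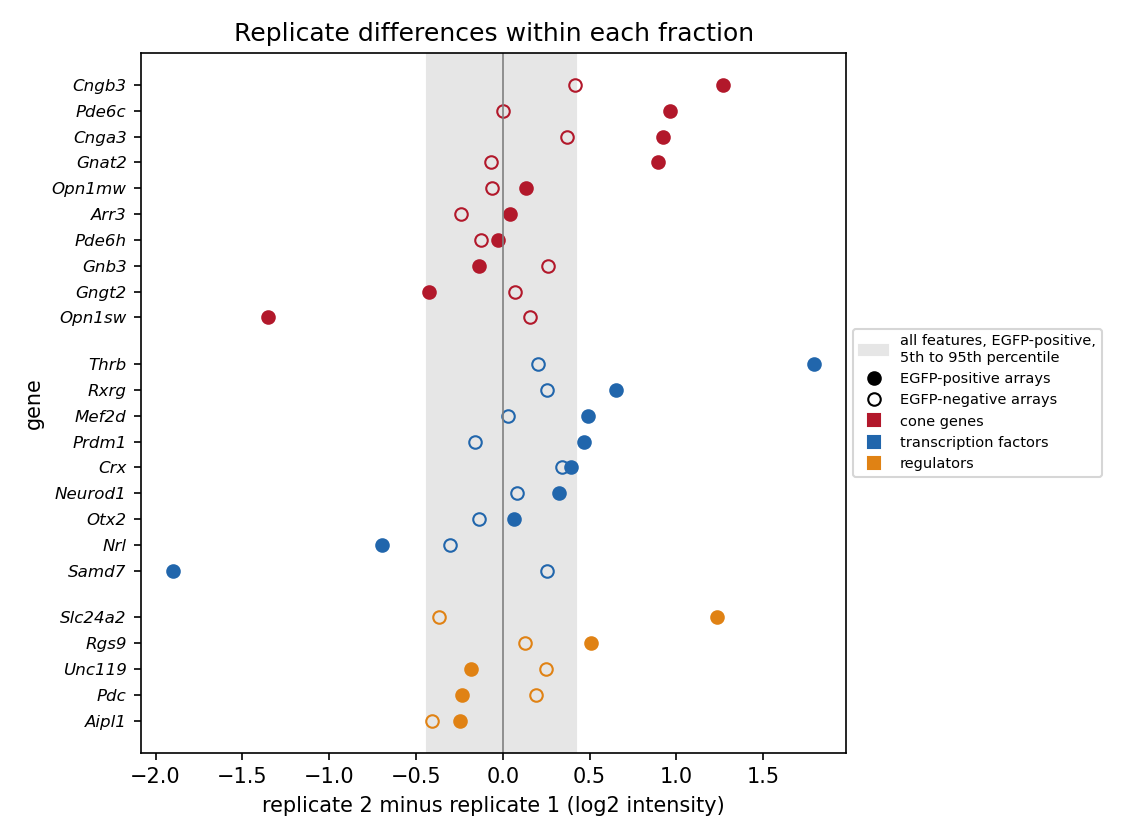
Replicate 2 minus replicate 1 in log2 intensity for the 10 cone genes (red), 9 transcription factors (blue) and 5 phototransduction regulators (orange), with filled circles for the EGFP-positive and open circles for the EGFP-negative arrays; the grey band spans the 5th to 95th percentile of all features in the positive fraction, -0.44 to 0.42. Of the cone genes Cngb3, Pde6c, Cnga3 and Gnat2 lie to the right of the band and Opn1sw to its left; Thrb, Rxrg, Mef2d, Prdm1, Slc24a2 and Rgs9 also lie to the right, and Samd7 and Nrl to the left. The factors and regulators drawn are a part of the 18 and 14 measured. Of those not drawn, the factor Pias3 (-0.61) and the regulators Pde6d (-0.59), Gnb5 (-0.46) and Rcvrn (-0.440, at the edge) were to the left. The factor Onecut1 (1.14) was to the right.

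Profiles over the 4 arrays, each centred on its own mean, were compared among the 18920 genes by root mean square distance on the log2 scale. The likeness describes 4 arrays only. Genes chosen by it resemble their member in fraction difference and replicate direction through the choice itself, so these traits are descriptions and not separate results. Closest to Opn1sw was Rp1, which encodes a microtubule-associated protein of the photoreceptor axoneme, at a distance of 0.11. Rp1 read 363.4 and 171.2 in the positive fraction, against 63.7 and 67.3 in the negative fraction, and so shared the higher reading in positive replicate 1. Next came the glutamate transporter gene Slc1a7 at 0.24, Rspo2, a secreted enhancer of Wnt signalling, at 0.29, the photoreceptor repressor gene Samd7 at 0.33 and the acyltransferase gene Lpcat2 at 0.39. Samd7 read 460.3 and 123.5 in the positive fraction, against 88.3 and 105.5 in the negative fraction, an even steeper step between the positive replicates than that of Opn1sw. None of these 5 passed the threshold, though Slc1a7 and Lpcat2 (limma adjusted p of 0.0525 and 0.0570) did so with median centring (0.0471 and 0.0495), a robust variance trend (0.0399 and 0.0436) and gene means (0.0426 and 0.0459).

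The genes nearest to Cngb3 were Impg2, of the matrix around photoreceptors, at 0.26, the photoreceptor cadherin gene Cdhr1 at 0.30, Crx at 0.38, the ciliary kinase gene Mak at 0.40 and the vesicle release gene Doc2b at 0.50. All 5 were higher in positive replicate 2 and all passed the threshold, with limma adjusted p of 0.00596 to 0.0133. They were picked for likeness to Cngb3, which has both a large fraction difference and a higher positive replicate 2. Nearest to Gnb3 was Pdc, which encodes phosducin, a protein that binds the transducin βγ dimer, at 0.046. Pdc read 440.5 and 374.5 in the positive fraction, against 51.3 and 58.5 in the negative fraction. After it came the phosphatase gene Ppef2 at 0.16, the proneural gene Neurod4 at 0.16, Fabp7, which encodes a fatty acid-binding protein, at 0.17 and the γ subunit gene Gngt2, also at 0.17. Of the subunits of cone transducin, Gngt2 was thus among the 5 nearest to Gnb3 and Gnat2 was not.

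**Figure D4:**
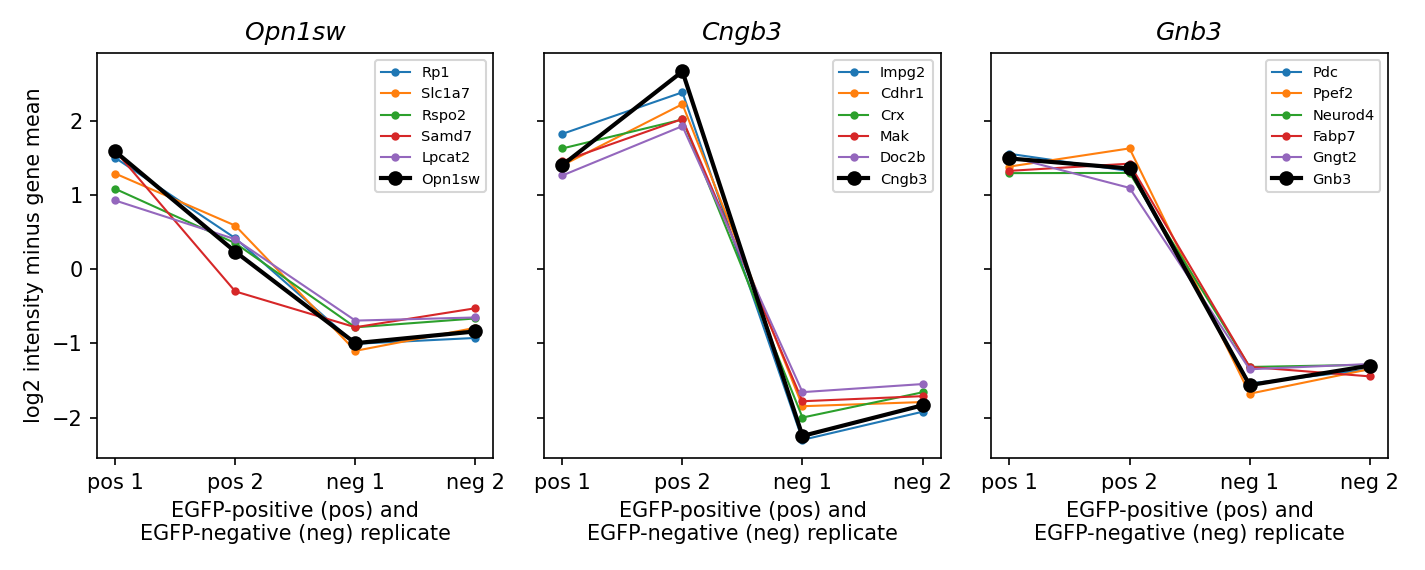
Log2 intensity minus the gene's own mean on the 4 arrays (EGFP-positive replicates 1 and 2, then EGFP-negative replicates 1 and 2) for Opn1sw, Cngb3 and Gnb3 in black, each with the 5 genes of the smallest root mean square distance in colour. The Opn1sw group is higher in positive replicate 1, the Cngb3 group in positive replicate 2, and the Gnb3 group is nearly level across the positive replicates. The genes in colour were chosen for this likeness.

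Among 14 measured regulators of the cascade, 3 were called higher and 0 lower by limma and 5 had an unadjusted p under 0.05, with a median log2 difference of 0.13. The matching shares of all features were 0.820%, 0.143% and 19.2%. Pdc was higher by 2.89 ± 0.13 (limma adjusted p = 0.00576). Unc119, which encodes a chaperone of lipid-modified transducin, read 2281.1 and 2009.8 in the positive fraction, against 492.2 and 584.9 in the negative fraction and was 3.99-fold higher (limma adjusted p = 0.0111). Rgs9, which speeds the shut-off of transducin, was higher by 1.51 ± 0.19 (limma adjusted p = 0.0439), a call lost with a pseudocount of 16 (limma adjusted p = 0.0515). Aipl1, a chaperone needed for assembly of the phosphodiesterase, differed by 1.05 ± 0.18 and missed the threshold (limma adjusted p = 0.0753). Rgs9bp, the anchor of Rgs9, read 159.6 and 159.2 in the positive fraction, against 164.4 and 169.2 in the negative fraction, and was chosen after its values were seen. Of this shut-off pair the enzyme was called and the anchor was not; the gap between them was not tested.

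Of 18 measured transcription factors known to act on photoreceptor or cone genes, 5 were called higher and 0 lower by limma and 12 had an unadjusted p under 0.05, with a median log2 difference of 1.08. Over all features these shares were 0.820%, 0.143% and 19.2%. Crx read 3628.7 and 4758.8 in the positive fraction, against 292.2 and 370.1 in the negative fraction, and was 12.6-fold higher (limma adjusted p = 0.00596). The transgene holds Crx regulatory sequences and the cells were sorted by it, so this reading checks the sort; whether the transgene adds to it is not stated. The others called were Prdm1, Neurod1, Otx2 and Mef2d, higher by 2.61, 2.06, 1.94 and 1.79. The cone receptor genes Thrb and Rxrg read 785.9 and 2722.1, and 262.8 and 412.4, in the positive fraction, against 155.0 and 178.2, and 100.6 and 119.9, in the negative fraction. Like Opn1sw and Cnga3, both separated the fractions without passing the threshold (limma adjusted p of 0.0826 and 0.0634); Rxrg passed with a robust variance trend (0.0474). Nrl read 185.9 and 114.9 in the positive fraction, against 121.1 and 98.0 in the negative fraction, and the fractions overlapped (limma adjusted p = 0.462).

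As a check of the sort, 5 of 6 photoreceptor markers were called higher, the exception being Rcvrn, and 0 of 3 rod markers were called, with 0 at an unadjusted p under 0.05. Over all features 0.820% were called higher, and 19.2% had an unadjusted p under 0.05 in either direction. Of these photoreceptor and rod markers only Rbp3 was in none of the lists described above, so the check is not independent of them. Amacrine cell markers were higher with the photoreceptor markers: both positive arrays lay above both negative ones for all 6, against 22.3% of all features. Their summed intensities were 3954.7 and 4373.2 in the positive fraction, against 2364.9 and 2341.2 in the negative fraction. Limma called 2 of these 6, the transcription factor genes Tfap2a (log2 difference 1.12, limma adjusted p = 0.0429) and Tfap2b (1.06, limma adjusted p = 0.0399), all 6 had an unadjusted p under 0.05, and their part in the differences of the cone genes was not tested. Bipolar, pigment cell and microglial markers had no member called by limma among 5, 6 and 4, and 1, 1 and 0 had an unadjusted p under 0.05, against 19.2% of all features. Spearman's correlation over all features was 0.985 between the positive and 0.987 between the negative arrays. Across the fractions it ranged between 0.954 and 0.980.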

How the data were processed

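The deposited values are RMA-normalised intensity, per the submitters' processing notes, which name the genome build mm8; the scale was inferred to be linear from the range of 18.9 to 36625.2. For the RMA version and any filter, the sources used here give nothing. Per the labels' protocols, 100 ng of total RNA per sample was amplified and labelled with biotin.

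Log2 values without a pseudocount of all 22431 features on the 4 arrays entered a linear model (limma 3.58.1, R 4.3.3, eBayes without a trend or a replicate term) of EGFP-positive minus EGFP-negative. P-values are two-sided and Benjamini-Hochberg adjusted over all features at a threshold of 0.05, and errors of differences are moderated SE with 5.27 degrees of freedom. The number of arrays limits the precision. A gene took its feature with the highest mean, named from the platform annotation where it gives 1 symbol (20176 features; 412 have several and 1843 none). The pipeline was tested on simulated data.

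The members, lists and tests were chosen with earlier results of these data known. Named were all members, the rod counterparts, the regulators and transcription factors that were called or among the 4 largest differences (with Crx, Thrb, Rxrg and Nrl always), and the 5 nearest profiles of Opn1sw, Cngb3 and Gnb3. Alternatives were median centring, a further quantile normalisation, a robust variance trend, a filter at the 25th percentile, a pseudocount of 16, gene means, a replicate block and leaving out each array. Figures were drawn with matplotlib 3.10.9 in Python 3.11.15. Genes without a singly annotated feature were not analysed here.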

Additional observations from a re-analysis of the deposited data

How the results depend on the processing

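The 5 calls among the cone genes (Gnat2, Gnb3, Gngt2, Pde6c and Cngb3) held under median centring, a further quantile normalisation, a robust variance trend, removal of features below the 25th percentile (which took out Arr3), a pseudocount of 16 and gene means, and no cone gene was called lower in any fit. With a replicate block 7 cone genes were called, Opn1sw and Cnga3 being added, 6 cone minus rod gaps, and 1377 features higher and 1500 lower, against 184 and 32 without it. The block also called the rod counterparts Sag (0.87, limma adjusted p = 0.0338) and Gngt1 (0.50, limma adjusted p = 0.0297), the factors Thrb and Rxrg, the regulator Aipl1, and Rp1, Slc1a7, Rspo2 and Lpcat2. The replicates share only a number in the labels. Their differences between replicates correlated across features with r = 0.481 between the fractions, and with 2 numbers this does not show that they are paired.

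Leaving out each array in turn gave 0 to 7 cone genes called, 0 to 6 gaps, 0 to 667 features higher and 0 to 762 lower, the zeros without either negative array. Differences near 0 changed sign. With median centring Opn1mw came to 0.015, Cnga1 to 0.000102 and Cngb1 to 0.0054. With 1 array left out the difference ranged between -0.076 and 0.056 for Opn1mw, -0.079 and 0.651 for Pde6b, -0.063 and 0.089 for Gnb1, -0.062 and 0.013 for Cnga1, and -0.081 and 0.043 for Cngb1. None of these was called in any of these fits. Of the 4 called cone minus rod gaps, that of Cngb3 was lost with a robust variance trend, and that of Gngt2 was not tested after the 25th percentile filter, which removed Gngt1. The arrays carry no detection call, so what signal over background limits for the dim genes could not be measured.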
